A study of Mus musculus with 18 samples.

Results

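Messenger RNA levels of 10 genes that mark the vessels of the brain were examined in Nrf2 knockout and wild-type mice. The genes were Flt1, Kdr, Tek, Pecam1, Cdh5, Cldn5 and Abcb1a of endothelial cells, and Pdgfrb, Rgs5 and Acta2 of mural cells. They were taken by name, and all probes assigned to them on the array were used, which gave 14 of 41174 probes and 10 of the 22675 genes tested. Acta2 was measured by 3 probes, Flt1 and Cdh5 by 2 each, and the other 7 genes by 1.

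Total RNA came from brainstem, hippocampus and cerebral cortex of male 129SV mice that were not stressed. The groups were Nrf2 knockout and wild-type brainstem, Nrf2 knockout and wild-type hippocampus, and Nrf2 knockout and wild-type cortex, with 3 one-colour Agilent arrays each (18 in all). The labels state neither the age of the mice nor the part of the gene that was removed. The knockout allele is not limited to a cell type in the labels. The question addressed was which transcripts differ in the absence of Nrf2, a transcription factor that binds antioxidant response elements, and a second set of comparisons asked how the same transcripts differ between regions.

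Levels are given as log2 of the background-subtracted intensity minus the 75th percentile of the array, so 0 is the level of the probe at that percentile and 1 unit is a doubling. A difference is the first-named group minus the second on this scale. Errors after a difference are standard errors, and those after a level are SD over 3 arrays. Across the arrays, 65.3% to 75.1% of spots were well above background, the 75th percentile of intensity lay between 652 and 1130, and 0 spots were saturated. The number of arrays limited the precision. Nfe2l2, the gene for Nrf2, lay between -8.42 and -7.40 in knockout cortex, between -5.86 and -3.63 in knockout hippocampus and between -7.35 and -4.97 in knockout brainstem, against 0.76 to 1.36 in all wild-type arrays. It was above background in 0 of 3, 3 of 3 and 1 of 3 knockout arrays of these regions. Slc17a7, a vesicular glutamate transporter of forebrain neurons, averaged -1.70 ± 0.37 in knockout and -1.48 ± 0.20 in wild-type brainstem, against 2.08 ± 0.12 and 2.10 ± 0.09 in hippocampus and 2.04 ± 0.26 and 2.0 ± 0.04 in cortex of the same genotypes (SD, n = 3 each). The cortical arrays lay on slides that held no other region, so slide and region cannot be told apart there, whereas each slide held both genotypes. Brainstem and hippocampus shared a slide with 1 array of each of their groups. Their other arrays lay on slides of 1 region only.

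Endothelial cells line the vessels and, in the brain, form the blood-brain barrier with tight junctions and efflux pumps. Vascular endothelial growth factor acts on them through the receptor tyrosine kinase Kdr (VEGFR2), while Flt1 (VEGFR1) binds the same ligand and acts largely as a decoy. Angiopoietins act through the receptor Tek (TIE2), and platelet-derived growth factor from endothelium recruits pericytes through Pdgfrb. Pericytes wrap capillaries and are rich in Rgs5, and smooth muscle cells of arterioles contain the actin Acta2.

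Promoter sequences in the RefSeq table (build GRCm38.p6) were matched for 7 of the 10 genes, namely Flt1, Cldn5, Kdr, Tek, Rgs5, Acta2 and Abcb1a. The 250 bases before the annotated start were searched on both strands for TGACNNNGC, the core of the antioxidant response element that Nrf2 binds with a small Maf partner, and for AGGAAG, a core recognised by ETS factors, the family of endothelial regulators such as Erg and Fli1. The first was present in 1 of the 7 windows (Kdr), against 10.2% of 32851 windows of all genes, and the second in 2 of 7 (Flt1 and Abcb1a), against 29.5%. The 3 windows with a match are shown because they are where the letters of either core occur. They run 5′ to 3′ on the strand of the gene, with the matches in capitals.
Kdr (chr5:75978456-75978705, minus strand): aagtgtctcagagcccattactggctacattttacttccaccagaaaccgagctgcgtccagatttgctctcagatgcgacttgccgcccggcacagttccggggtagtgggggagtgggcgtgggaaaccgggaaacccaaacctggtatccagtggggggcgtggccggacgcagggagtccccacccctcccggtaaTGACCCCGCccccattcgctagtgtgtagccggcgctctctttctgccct
Flt1 (chr5:147726012-147726261, minus strand): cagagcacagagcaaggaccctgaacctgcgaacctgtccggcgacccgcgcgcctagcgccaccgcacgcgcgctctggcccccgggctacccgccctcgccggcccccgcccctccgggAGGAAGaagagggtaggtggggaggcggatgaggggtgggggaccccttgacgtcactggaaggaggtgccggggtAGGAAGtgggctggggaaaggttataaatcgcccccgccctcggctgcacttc
Abcb1a (chr5:8566841-8567090, plus strand): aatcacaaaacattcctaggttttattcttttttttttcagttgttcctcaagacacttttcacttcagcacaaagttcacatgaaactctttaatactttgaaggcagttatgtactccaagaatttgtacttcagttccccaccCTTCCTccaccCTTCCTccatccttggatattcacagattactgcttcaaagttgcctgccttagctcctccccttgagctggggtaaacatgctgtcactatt
The TGACNNNGC match of Kdr started 50 bases before the annotated start. In Flt1 the AGGAAG matches started 129 and 53 bases before it. In Abcb1a they lay on the opposite strand, 104 and 93 bases before it. A match of letters is a description and not a measured binding site.

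Loss of Nrf2 was not accompanied by a called change in any of the 10 vascular genes. In brainstem, 0 of 10 were called at an adjusted p under 0.05 (limma with Benjamini-Hochberg adjustment over 22675 genes), against 0.0309% of all genes tested, and 1 of 10 had an unadjusted p under 0.05 against 3.06% of all genes. In hippocampus 0 of 10 were called, against 0.0176% of all genes, and 0 had an unadjusted p under 0.05, against 1.36%. In cortex 0 of 10 were called, against 0.0309%, and 0 had an unadjusted p under 0.05, against 2.20%. These counts read each gene from its brightest probe. In the fit over all kept probes, the second Cdh5 probe differed in cortex by 0.28 ± 0.12 (limma unadjusted p = 0.040). The dimmest Acta2 probe differed there by 0.66 ± 0.28 (unadjusted p = 0.034). Both had a limma adjusted p of 0.9999. Over the average of the 3 regions 0 of 10 were called, against 0.0529%, and 2 had an unadjusted p under 0.05, namely Pdgfrb and Flt1, against 6.95% of all genes. This averaged test took the 9 arrays of a genotype as independent. The labels do not say whether arrays of the same number in different regions come from the same animal. A random block for that number was fitted for regional comparisons only, so the averaged intervals and p-values do not allow for it. The 95% intervals of the differences within a region reached from 0.19 log2 units on either side for Acta2 to 0.69 for Abcb1a, before any adjustment over genes. RNA was taken from whole tissue, in which fewer vascular cells and less RNA per vascular cell cannot be told apart.

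**Figure D1:**
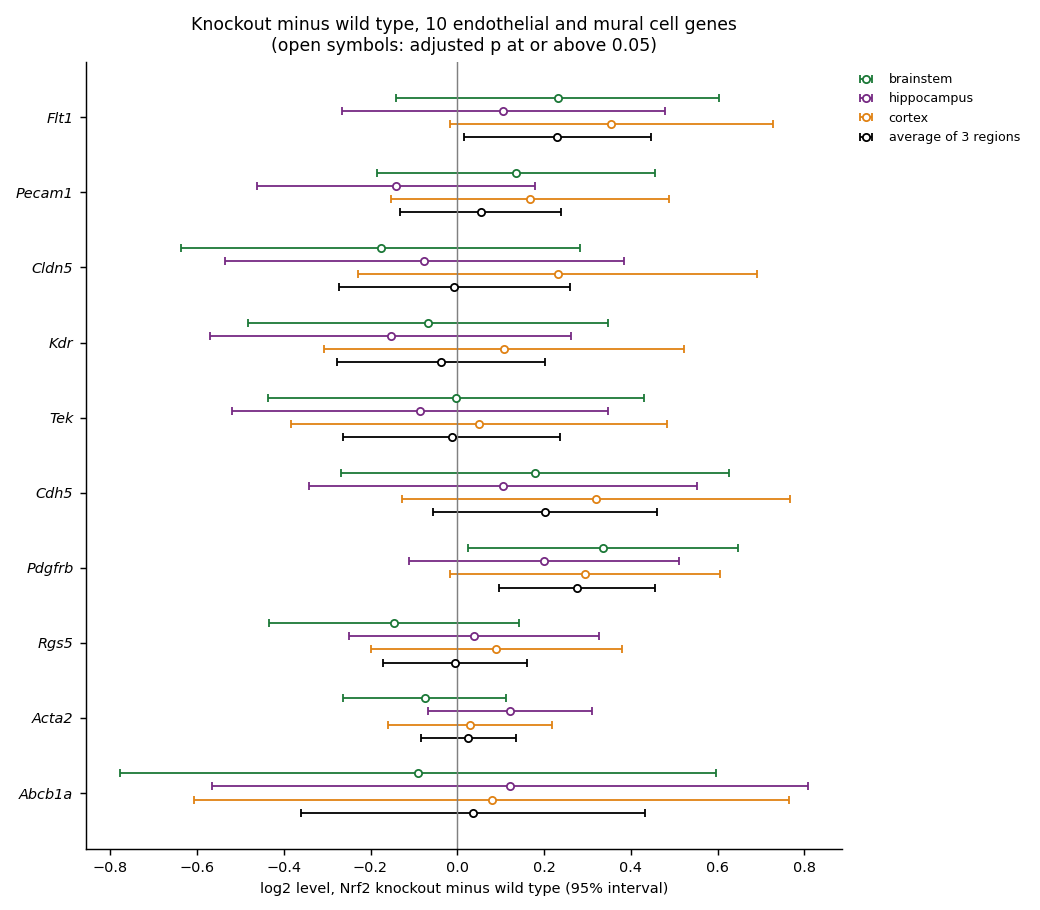
Differences in log2 level between Nrf2 knockout and wild type (horizontal axis) for each of the 10 genes (rows), in brainstem, hippocampus, cortex and averaged over the 3 regions, with 95% intervals. All symbols are open because no adjusted p was under 0.05, and the averaged interval lies above 0 for Flt1 and Pdgfrb only.

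Flt1, the decoy receptor, was among the 2 genes whose averaged difference lay farthest above 0. In brainstem it measured 3.73, 3.77 and 3.90 in knockout arrays and 3.58, 3.64 and 3.48 in wild-type arrays. In hippocampus it measured 3.31, 3.33 and 2.98 in knockout arrays and 3.12, 3.26 and 2.92 in wild-type arrays. In cortex it measured 3.85, 3.25 and 3.14 in knockout arrays and 3.30, 3.04 and 2.83 in wild-type arrays. The genotypes overlapped in hippocampus and cortex and did not in brainstem. The averaged difference was 0.23 ± 0.10 (95% interval 0.02 to 0.45, unadjusted p = 0.037, limma adjusted p = 0.710). Within the slides the difference was positive in all 6 sets, 0.14 and 0.42 in brainstem, 0.19 and 0.06 in hippocampus, and 0.38 and 0.31 in cortex. The second Flt1 probe gave an averaged difference of 0.20 ± 0.15.

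Kdr, the signalling receptor, ranged from -1.31 to -0.83 in knockout and from -0.98 to -0.92 in wild-type brainstem, from -1.46 to -1.06 and from -1.47 to -0.81 in hippocampus, and from -1.60 to -1.04 and from -1.63 to -1.23 in cortex. The wild-type arrays of brainstem and hippocampus lay within or across the knockout range. Its averaged difference was -0.04 ± 0.11. Tek, the angiopoietin receptor, had an averaged difference of -0.01 ± 0.12, with levels of -2.36 to -1.71 in knockout and -2.19 to -1.80 in wild-type brainstem. Both receptors thus had intervals spanning 0, from -0.28 to 0.20 for Kdr and from -0.26 to 0.24 for Tek.

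Junction and adhesion genes gave averaged differences with intervals that also spanned 0. Cdh5, the cadherin of endothelial adherens junctions, averaged -0.90 ± 0.36 in knockout and -1.08 ± 0.05 in wild-type brainstem, -1.43 ± 0.25 and -1.54 ± 0.22 in hippocampus, and -1.003 ± 0.41 and -1.32 ± 0.12 in cortex (SD, n = 3 each). The first knockout cortex array (-0.53) stood above the other 2 (-1.29 and -1.19) and above all 3 wild-type arrays (-1.19, -1.38 and -1.40). The averaged difference of Cdh5 was 0.20 ± 0.12 (limma adjusted p = 0.726). The second Cdh5 probe gave an averaged difference of 0.11 ± 0.07. Pecam1, an adhesion molecule at endothelial contacts, differed by 0.05 ± 0.09. Cldn5, the main claudin of the tight junctions of the blood-brain barrier, differed by -0.01 ± 0.12, with cortical levels of 2.82, 3.35 and 3.24 in knockout arrays and 3.09, 3.11 and 2.51 in wild-type arrays. Abcb1a, the P-glycoprotein pump that expels drugs from brain endothelium, differed by 0.04 ± 0.19. Its levels varied widely within a group: in brainstem they were -3.18, -3.08 and -2.30 in knockout arrays and -3.26, -2.84 and -2.19 in wild-type arrays.

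Pdgfrb, the pericyte receptor, had the smallest unadjusted p of the 10 genes over the average of regions. In brainstem it measured 1.29, 1.22 and 1.62 in knockout arrays and 0.96, 1.2 and 0.97 in wild-type arrays. In hippocampus it measured 1.18, 1.15 and 1.17 in knockout arrays and 1.05, 1.07 and 0.79 in wild-type arrays. In cortex it measured 1.70, 1.15 and 1.32 in knockout arrays and 1.25, 1.04 and 1.0 in wild-type arrays. All knockout arrays of brainstem and hippocampus lay above the wild-type arrays of the same region, and 2 of 3 did so in cortex. Set against the wild-type array of the same region and number, Pdgfrb was higher in knockout in 9 of 9 pairs, by 0.02 to 0.65, and Flt1 in 9 of 9 pairs, by 0.06 to 0.55. Cdh5 was higher in 8 of 9 pairs and the other 7 genes in 4 to 6. These pairs restate the arrays of the averaged difference and may not be independent. How many of all genes were higher in 9 of 9 pairs was not counted. The averaged difference of Pdgfrb was 0.28 ± 0.08, a factor of 1.21 (95% interval 0.10 to 0.46, unadjusted p = 0.0052, limma adjusted p = 0.674), with arrays of different regions taken as independent. Within slides it was 0.18 and 0.65 in brainstem, 0.13 and 0.23 in hippocampus, and 0.28 and 0.32 in cortex. The value did not survive adjustment over all genes, of which 6.95% had an unadjusted p under 0.05.

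The other mural genes had averaged differences close to 0. Rgs5, a regulator of G-protein signalling abundant in pericytes, differed by -0.01 ± 0.08, and averaged 0.94 ± 0.19 in knockout and 1.09 ± 0.19 in wild-type brainstem. Acta2, the smooth muscle actin, differed by 0.03 ± 0.05 for its brightest probe, 0.03 ± 0.12 for the second and 0.29 ± 0.16 for the dimmest. The dimmest probe measured -2.79, -3.69 and -3.20 in knockout cortex, against -3.90, -3.84 and -3.92 in wild-type cortex. All 3 knockout values lay above the wild-type ones there, and the difference of 0.66 ± 0.28 had a limma adjusted p of 0.9999 in the fit over all kept probes.

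**Figure D2:**
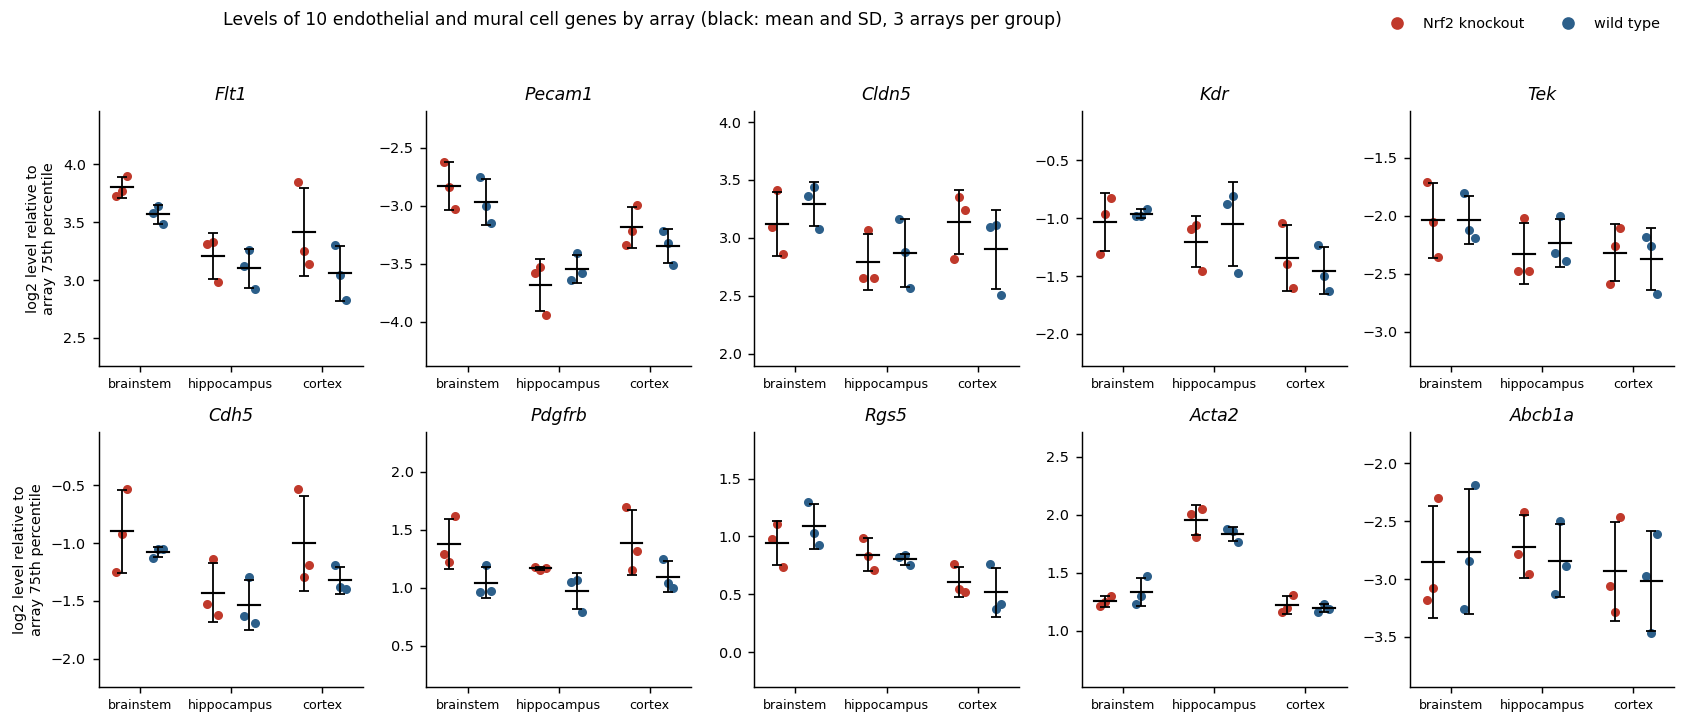
Log2 level relative to the 75th percentile of the array (vertical axis, each panel spanning 2.2 units) for the 10 genes in brainstem, hippocampus and cortex, with Nrf2 knockout left of wild type. Points are arrays and bars are the mean and SD of 3 arrays; Pdgfrb lies higher in all knockout than in all wild-type arrays of brainstem and hippocampus, and the hippocampal arrays of Acta2 stand above those of the other regions.

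The number of genes higher in knockout means varied between regions and with single arrays. In brainstem 4 of the 10 genes were higher in knockout means, with a median difference of -0.04 against 0.00 for all genes. In hippocampus 6 of 10 were, with a median of 0.07 against 0.02. In cortex all 10 were, with a median of 0.14 against 0.00 for all genes, of which 49.9% were positive. Single arrays, left out in turn after the data were seen, moved the cortical count: it was 7 of 10 without the third knockout array, 9 of 10 without the first knockout, the second wild-type or the third wild-type array, and 10 of 10 without the second knockout or the first wild-type array. The brainstem count of 4 was 6 without the first (median 0.05) or the second (0.01) knockout array, and the hippocampal count of 6 was 4 without the second knockout array (median -0.03). Without the third wild-type array the cortical median was 0.06, and without the first wild-type array 0.23. The third wild-type array was the lowest of the 6 cortical arrays for 7 of the 10 genes. On the cortical slide with 2 arrays of each genotype, 6 of 10 genes were positive (median 0.07), and on the slide with 1 array of each, 10 of 10 were (median 0.26).

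The difference of the knockout effect between regions was tested directly. It was called for 0 of 10 genes between hippocampus and cortex, 0 of 10 between brainstem and cortex and 0 of 10 between brainstem and hippocampus, against 0.0% of all genes in the first, 0.0% in the second and 0.0% in the third. No member had an unadjusted p under 0.05 in these 3 tests (limma), where 0.860%, 0.891% and 0.9746% of all genes had one. The estimates lay between -0.31 and 0.09, between -0.41 and 0.04, and between -0.21 and 0.28 log2 units.

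Wider lists of vascular genes gave 0 called genes as well. Of 30 tested genes of endothelial identity and of VEGF, angiopoietin and Notch signalling, 22 were positive in the knockout average (median 0.10), and 6 had an unadjusted p under 0.05. Of 24 genes of barrier junctions, transporters and Wnt signalling, 17 were positive (median 0.09), with 4 such p-values. Of 21 pericyte and smooth muscle genes, 13 were positive (median 0.07), with 1. Over all genes the median was 0.00, 51.5% were positive and 6.95% had such a p, against 20.0%, 16.7% and 4.76% of these lists. In cortex all 24 barrier genes were positive (median 0.14, range 0.01 to 0.34), a count that was 16 of 24 without the first knockout array and 18 of 24 without the third wild-type array.

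The genes with the smallest p-values of these lists kept to small differences in the knockout average. Epas1, the hypoxia-inducible factor HIF-2α, which is abundant in endothelium, differed by 0.35 ± 0.09 (unadjusted p = 0.0015, limma adjusted p = 0.534). Sox17, an arterial endothelial transcription factor, differed by 0.33 ± 0.11, and Pgf, a ligand of Flt1, by -0.27 ± 0.09. Jam2, a junctional adhesion molecule, differed by 0.22 ± 0.06 with the same adjusted p as Epas1. Slc16a1, the monocarboxylate transporter of the barrier, differed by 0.25 ± 0.08, and the transferrin receptor Tfrc by 0.16 ± 0.06. Among mural genes, S1pr3, a sphingosine-1-phosphate receptor, differed by -0.13 ± 0.06, the pericyte potassium channel subunit Kcnj8 by 0.14 ± 0.08 and the pericyte product Vtn by 0.11 ± 0.07.

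Markers of other cells and of blood were read in the same fit, and 0 were called between genotypes. The 4 measured erythrocyte genes were positive in all 3 regions, with a median of 0.37 in the average, and 3 of them had an unadjusted p under 0.05. Their summed linear level ranged from 65.9 to 95.7 in knockout and from 54.2 to 79.2 in wild-type cortex, from 50.2 to 65.5 and from 31.6 to 53.4 in hippocampus, and from 80.02 to 101.5 and from 60.2 to 100.5 in brainstem. Hbb-bt, a beta globin, differed by 0.38 ± 0.14 (limma adjusted p = 0.703). The part of blood or vessel content in the differences of Flt1 and Pdgfrb was not tested. Of 12 meningeal and fibroblast genes 7 were positive (median 0.02), with Col1a1, a collagen of fibroblasts, at 0.39 ± 0.18. Of 10 microglial genes 7 were positive (median 0.09), with the complement subunit C1qc at 0.15 ± 0.07.

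The remaining marker lists gave medians on both sides of 0. Astrocyte genes were positive in 7 of 8 (median 0.10), with the glutamate transporter Slc1a3 at 0.30 ± 0.09 and an adjusted p of 0.627 (limma). Neuronal genes were positive in 2 of 10 (median -0.05), with Map2, a dendritic microtubule protein, at 0.14 ± 0.06. Oligodendrocyte genes were positive in 4 of 8 (median 0.01), with Ugt8a, which makes a myelin lipid, at -0.15 ± 0.11. The 9 choroid plexus genes were all negative in the average (median -0.47), with Otx2 at -0.63 ± 0.56, and 6 of them were above background on all arrays. By region, 8 of 9 were positive in brainstem (median 0.33), and 0 of 9 in hippocampus (-1.04) and in cortex (-0.81). Their summed linear level ranged from 10.4 to 64.6 in knockout and from 12.7 to 90.8 in wild-type hippocampus. Genes of other smooth muscle and of heart or skeletal muscle were positive in 3 of 7 (median -0.01), with Myh7 at 0.13 ± 0.13.

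**Figure D3:**
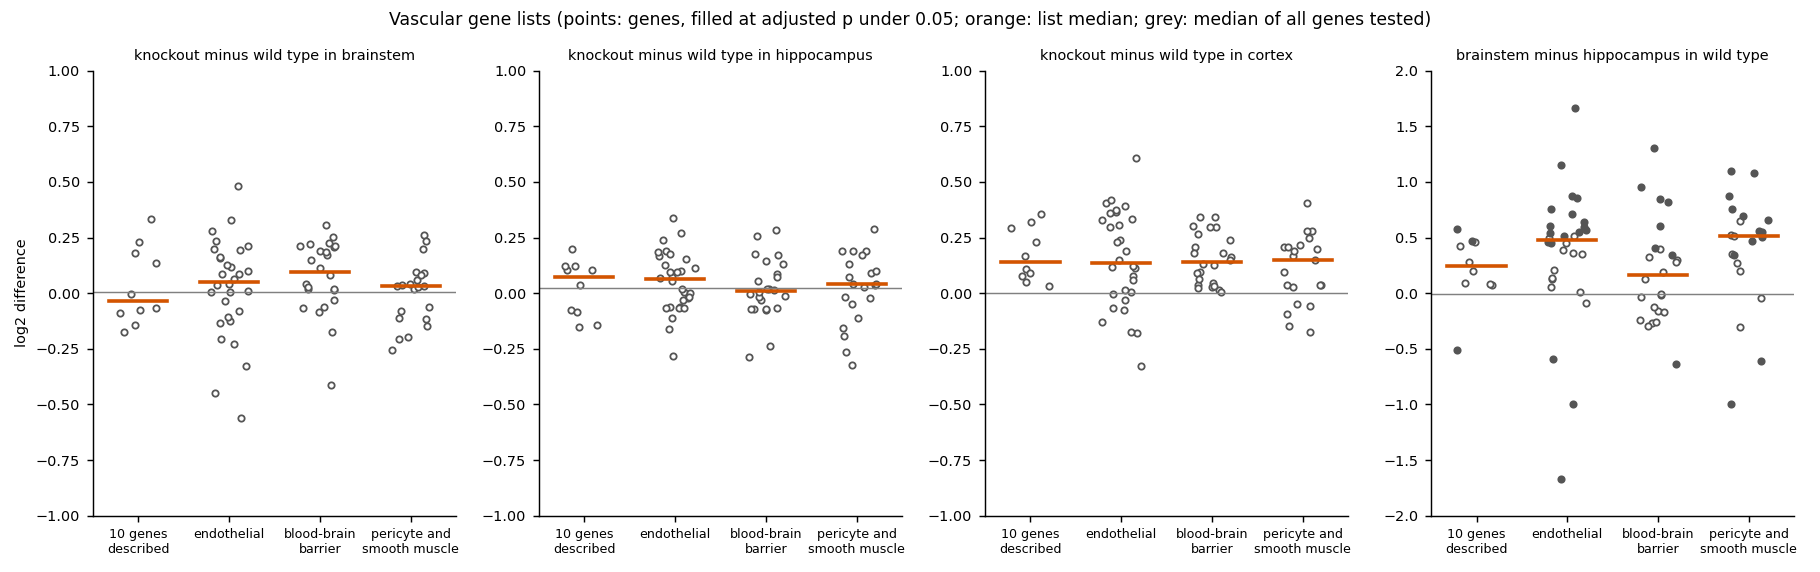
Log2 differences (vertical axis) of single genes (points, filled at an adjusted p under 0.05) in the 10 described genes and 3 vascular lists, for knockout minus wild type in 3 regions and for brainstem minus hippocampus in wild type. Orange bars are list medians and the grey line is the median of all genes tested; no point is filled between genotypes, whereas filled points lie on both sides of 0 between the regions.

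Between regions, a few of the vascular genes changed, and the highest of the 6 group means was that of a brainstem group for 7 of the 10. Brainstem made up 2 of the 6 groups, and the same count is not given for all genes. Comparing brainstem with hippocampus, Pecam1 and Flt1 rose and the brightest probe of Acta2 fell, in both genotypes. That made 3 of 10 called in knockout mice, against 40.3% of all genes, and 3 of 10 in wild-type mice, against 41.5%. Between brainstem and cortex 0 of 10 were called in knockout mice (3 had an unadjusted p under 0.05, limma), against 35.5%, and 2 of 10 in wild-type mice (Rgs5 and Flt1), against 35.7%. Between hippocampus and cortex 2 of 10 were called in knockout mice (Acta2 and Pecam1), against 16.3%, and 1 of 10 in wild-type mice (Acta2), against 16.7%. Each of these shares of the 10 genes lay below that of all genes, apart from 2 of 10 between hippocampus and cortex in knockout mice.

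**Figure D4:**
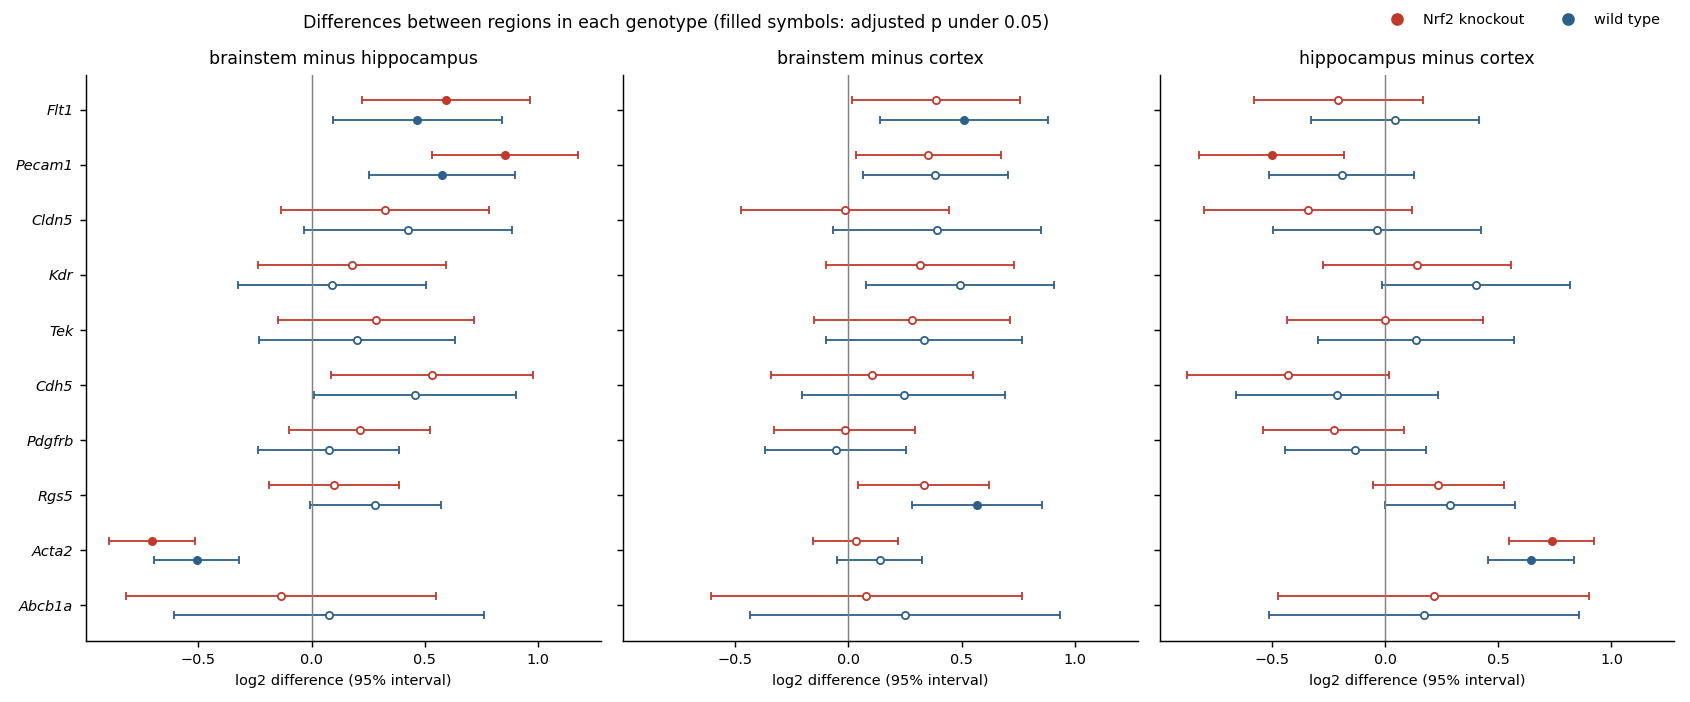
Log2 differences between regions with 95% intervals (horizontal axis) for the 10 genes (rows), in Nrf2 knockout (red, upper) and wild-type (blue, lower) mice. Filled symbols mark an adjusted p under 0.05 and appear for Flt1, Pecam1, Rgs5 and Acta2.

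Pecam1 was the endothelial gene with the largest regional difference among the 10. It measured -2.62, -2.84 and -3.03 in knockout brainstem, against -3.58, -3.53 and -3.94 in knockout hippocampus and -3.34, -3.22 and -2.99 in knockout cortex. In wild-type mice it measured -2.75, -3.00 and -3.15 in brainstem, against -3.64, -3.41 and -3.58 in hippocampus and -3.22, -3.32 and -3.51 in cortex. Brainstem and hippocampus did not overlap in either genotype. Brainstem exceeded hippocampus by 0.85 ± 0.15 in knockout mice (limma adjusted p = 0.00035), a factor of 1.81, and by 0.58 ± 0.15 in wild-type mice (adjusted p = 0.0064), a factor of 1.49. On the slide that held arrays of both regions, with 1 array per group, the differences were 0.55 and 0.50. Hippocampus was below cortex by 0.50 in knockout mice (-0.50 ± 0.15, limma adjusted p = 0.034), a call that was lost without the second (adjusted p = 0.071) or the third (0.116) knockout cortex array, without the first (0.057) or the third (0.148) knockout hippocampus array, and with slide as a random block (0.092). It also ended under normexp (0.056) and without the filter on dim probes (0.060). On the series table the limma adjusted p was 0.932, but there the third knockout columns of cortex and hippocampus each hold an array of the other region.

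Flt1 was higher in brainstem than in hippocampus by 0.59 ± 0.17 in knockout mice (limma adjusted p = 0.013) and by 0.47 ± 0.17 in wild-type mice (adjusted p = 0.043), factors of 1.51 and 1.38. Brainstem arrays did not overlap hippocampal arrays in either genotype, as the levels given above show. In wild-type mice brainstem also exceeded cortex by 0.51 ± 0.17 (adjusted p = 0.033), and in knockout mice the difference was 0.39 ± 0.17 (adjusted p = 0.1003). These calls lay near the threshold. In knockout mice, the call against hippocampus was lost without the third hippocampus array (limma adjusted p = 0.064). The difference from cortex was called there without the first cortex array (0.0065) or with the title number as a replicate block (0.048). The title number is the number that ends a sample title, and the labels do not tie it to a mouse. In wild-type mice, the call against cortex was lost without the second (0.078) or the third (0.136) cortex array or the first (0.080) or second (0.093) brainstem array, with slide as a random block (0.053) and without the filter on dim probes (0.054). The call against hippocampus was lost in wild-type mice without the first (0.084) or the third (0.150) hippocampus array or any brainstem array (0.098, 0.114 and 0.057). It was also lost with that block (0.063) and without that filter (0.069). On the series table the limma adjusted p was 0.094, but there the third wild-type hippocampus column holds a knockout array.

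The second Flt1 probe gave smaller differences of brainstem from the other regions. Its brainstem minus hippocampus difference was 0.11 ± 0.25 in knockout and 0.09 ± 0.25 in wild-type mice. Its brainstem minus cortex difference in wild-type mice was 0.33 ± 0.25 (limma adjusted p = 0.347). Its hippocampus minus cortex difference was 0.11 ± 0.25 in knockout and 0.24 ± 0.25 in wild-type mice, where the brighter probe gave -0.21 ± 0.17 and 0.04 ± 0.17. In knockout brainstem it measured -0.11, 0.15 and 0.88 and in wild-type brainstem -0.15, -0.04 and 0.57, so that the spread within a group was wider than for the brighter probe.

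Cdh5 lay near the threshold. Brainstem minus hippocampus was 0.53 ± 0.21 in knockout mice (limma adjusted p = 0.055) and 0.46 ± 0.21 in wild-type mice (adjusted p = 0.093). In knockout mice it was called without the second hippocampus array (0.033) or the first brainstem array (0.021). It was also called with slide (0.041) or title number (0.046) as a random block. Cdh5 was called there too under normexp (0.032), quantile normalization (0.045) and trend and robust moderation (0.047). It was called as well with the restriction to probes above background on all arrays (0.048). Its second probe, which measured -3.57, -3.83 and -4.04 in knockout brainstem against -4.07, -4.23 and -4.34 in knockout hippocampus, gave 0.40 ± 0.12 in knockout mice and 0.36 ± 0.12 in wild-type mice. Both were past the threshold in the fit over all kept probes (limma adjusted p = 0.018 and 0.032).

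Rgs5 was higher in brainstem than in cortex by 0.57 ± 0.13 in wild-type mice (limma adjusted p = 0.0040), a factor of 1.48, with 1.30, 1.03 and 0.93 in brainstem against 0.76, 0.37 and 0.42 in cortex. In knockout mice it measured 0.98, 1.11 and 0.74 in brainstem against 0.76, 0.55 and 0.52 in cortex. The knockout groups overlapped and the wild-type groups did not. The knockout difference was 0.33 ± 0.13 (limma adjusted p = 0.069), and it was called without the first cortex array (0.048) or the third brainstem array (0.026). It was also called with the title number as a replicate block (0.013) or as a random block (0.030). Whether the genotypes differ in this regional step was among the tests of the knockout effect between regions, in which 0 members were called.

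Other endothelial genes gave regional differences short of the threshold. Kdr was 0.49 ± 0.19 higher in wild-type brainstem than in wild-type cortex (limma adjusted p = 0.062). Its difference became a call without the first cortex array (0.048) and with the title number as a replicate block (0.041). Its hippocampus minus cortex difference of 0.40 ± 0.19 in wild-type mice was called without the third hippocampus array (0.042). Pecam1 behaved likewise between brainstem and cortex: 0.35 ± 0.15 in knockout mice (0.083) was called without the third cortex array (0.049) or the third brainstem array (0.040), and 0.38 ± 0.15 in wild-type mice (0.059) without the third brainstem array (0.041) or with that block (0.039). Cldn5 differed between brainstem and hippocampus by 0.33 ± 0.21 in knockout and 0.43 ± 0.21 in wild-type mice, and Tek by 0.28 ± 0.20 and 0.20 ± 0.20. The wild-type difference of Cldn5 was called with the title number as a replicate block (limma adjusted p = 0.047). Abcb1a gave 95% intervals for this difference of -0.82 to 0.55 in knockout and -0.61 to 0.76 in wild-type mice. Pdgfrb showed little regional spread, with differences of -0.23 to 0.21 over the 3 pairs of regions in knockout mice and -0.13 to 0.08 in wild-type mice.

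Acta2 had the smallest adjusted p-values of the 10 genes, and they rested on 1 of its 3 probes. The brightest probe measured 2.01, 1.81 and 2.05 in knockout hippocampus, against 1.21, 1.25 and 1.30 in knockout brainstem and 1.16, 1.2 and 1.31 in knockout cortex. In wild-type mice it measured 1.88, 1.86 and 1.77 in hippocampus, against 1.23, 1.30 and 1.47 in brainstem and 1.16, 1.23 and 1.19 in cortex. Every hippocampal array lay above every array of the other regions. Hippocampus exceeded cortex by 0.74 ± 0.09 in knockout mice (limma adjusted p = 4.9e-05) and by 0.65 ± 0.09 in wild-type mice (adjusted p = 0.00016). Brainstem fell below hippocampus by 0.70 (-0.70 ± 0.09, limma adjusted p = 1.6e-05) and by 0.51 (-0.51 ± 0.09, adjusted p = 0.00031) in the same order of genotypes. On the slide shared by both regions, with 1 array per group, the differences were -0.71 and -0.41. On the series table the calls were lost for hippocampus against cortex (limma adjusted p = 0.818 in knockout and 0.095 in wild-type mice). The call for brainstem against hippocampus in knockout mice was lost there too (0.075). In that table the third knockout columns of cortex and hippocampus each hold an array of the other region. The third wild-type hippocampus column holds a knockout array. With groups mixed in this way, these losses are no check of the calls.

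The other Acta2 probes, which had larger standard errors, did not show the fall from hippocampus to brainstem. For the second probe brainstem minus hippocampus was 0.01 ± 0.21 in knockout and 0.14 ± 0.21 in wild-type mice, and for the dimmest it was 0.20 ± 0.28 and 0.26 ± 0.28. Hippocampus minus cortex was 0.27 ± 0.21 in knockout and 0.41 ± 0.21 in wild-type mice for the second probe, and -0.11 ± 0.28 and 0.40 ± 0.28 for the dimmest. None of these 8 values passed the threshold (limma, fit over all kept probes). The hippocampus minus cortex values had the sign of the brightest probe, apart from the dimmest in knockout mice. Brainstem minus cortex in wild-type mice was 0.55 ± 0.21 for the second probe and 0.66 ± 0.28 for the dimmest, against 0.14 ± 0.09 for the brightest. In knockout mice it was 0.28 ± 0.21 and 0.08 ± 0.28, against 0.03 ± 0.09. None of these was called either (lowest limma adjusted p 0.051). The second probe measured 0.89, 1.11 and 0.93 in knockout hippocampus, against 1.06, 1.18 and 0.71 in knockout brainstem, with overlapping ranges. The regional result for Acta2 rests on 1 probe, and which transcripts each probe detects was not examined.

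**Figure D5:**
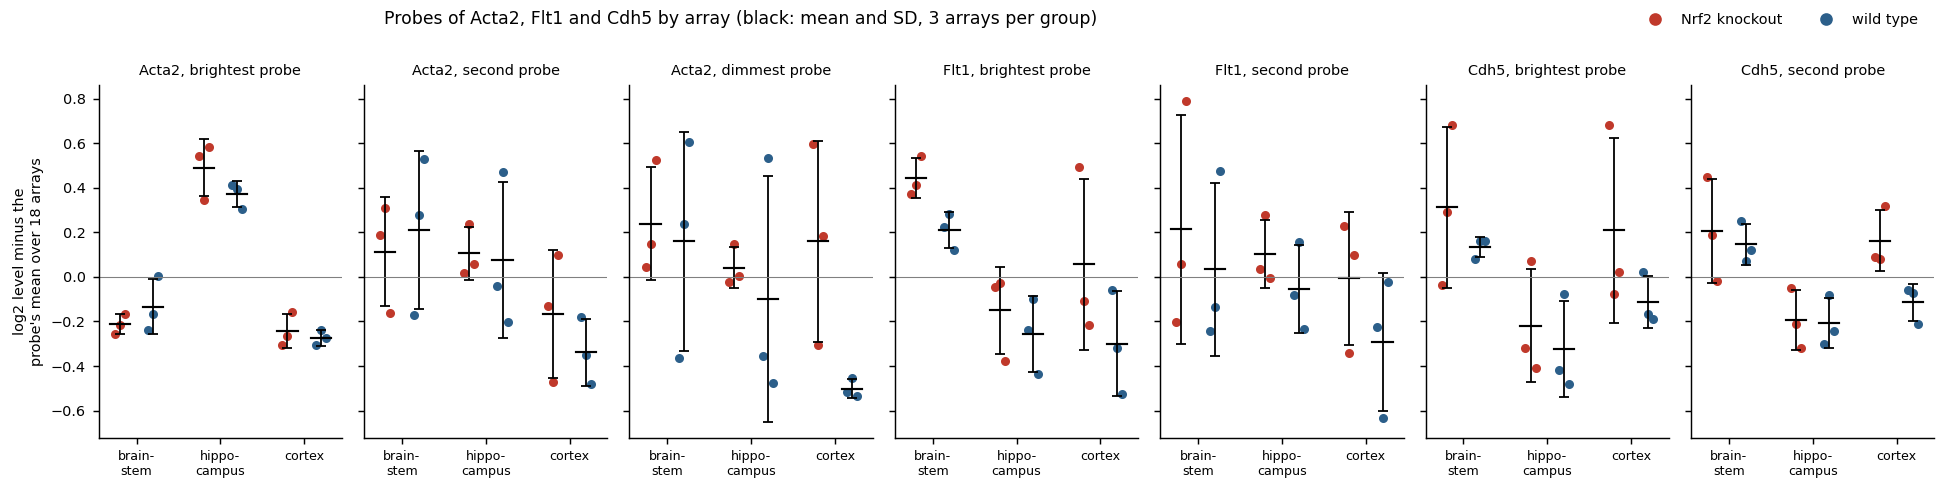
Log2 level of each probe of Acta2, Flt1 and Cdh5 minus the mean of that probe over 18 arrays (vertical axis), by region, with Nrf2 knockout left of wild type; points are arrays and bars are mean and SD of 3 arrays. The hippocampal arrays stand above the others for the brightest Acta2 probe and overlap them for its other probes.

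The order of the 6 group means put brainstem first for several endothelial genes. Flt1, Pecam1, Kdr and Tek had both brainstem groups first, and their neighbours in the order overlapped over arrays, except that knockout brainstem lay above wild-type brainstem for Flt1 without overlap. For Pecam1 the order continued with knockout cortex, wild-type cortex, wild-type hippocampus and knockout hippocampus, each overlapping the next. Rgs5 followed with wild-type brainstem, knockout brainstem, knockout hippocampus, wild-type hippocampus, knockout cortex and wild-type cortex, all neighbours overlapping. For Pdgfrb the knockout groups of cortex, brainstem and hippocampus came before the wild-type groups of cortex, brainstem and hippocampus, and knockout brainstem did not overlap knockout hippocampus. Abcb1a, with means between -3.01 and -2.72, and Cldn5, with means between 2.79 and 3.29, had no pair of neighbours apart.

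The wider lists moved with region in both directions. Between brainstem and hippocampus, 13 of 30 endothelial genes rose and 3 fell in knockout mice, and 15 rose and 3 fell in wild-type mice, with medians of 0.47 and 0.48 against -0.02 and -0.01 for all genes. The called share was 53.3% and 60.0% of the list, against 40.3% and 41.5% of all genes. Among the 4 largest, Aplnr, the apelin receptor of venous endothelium, differed by 1.72 and 1.67, and Angpt2, the angiopoietin that antagonises Tek, by 1.12 and 1.15. Nrp1, a VEGF co-receptor that is also a semaphorin receptor of neurons, differed by -1.89 and -1.67, and Cd34, a sialomucin of capillaries, by -0.77 and -0.997. The values are for knockout and then wild-type mice, with limma adjusted p-values of at most 0.00245. Aplnr and Angpt2 rose, and Nrp1 and Cd34 fell.

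Of the 24 barrier genes, 7 rose and 1 fell between brainstem and hippocampus in each genotype (33.3%, below the share of all genes), with medians of 0.16 in both. Lef1, a transcription factor of Wnt signalling, rose by 1.29 in knockout and 1.30 in wild-type mice, and Jam2 by 0.92 and 0.96. Mfsd2a, the lipid transporter of brain endothelium, rose by 0.66 and 0.84. Of 21 pericyte and smooth muscle genes, 9 rose and 2 fell in knockout mice and 11 rose and 2 fell in wild-type mice (medians 0.44 and 0.51), which is 52.4% and 61.9% of that list. Notch3, the receptor of mural cells, rose by 0.95 and 1.102, Mcam, an adhesion molecule of mural and endothelial cells, by 1.32 and 1.08, and Abcc9, a subunit of the pericyte potassium channel, by 0.98 and 0.87. Pdgfb, the endothelial ligand of Pdgfrb, fell by 0.58 and 0.99.

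Lists of other cell types also held called genes between brainstem and hippocampus, where 40.3% of all genes were called in knockout and 41.5% in wild-type mice. Their part in the vascular differences was not tested. Oligodendrocyte genes rose in 8 of 8 in knockout and 7 of 8 in wild-type mice, with medians of 1.44 and 1.11. Meningeal and fibroblast genes rose in 7 and 6 of 12 (1 fell in knockout mice), and erythrocyte genes in 1 and 3 of 4. Microglial genes fell in 5 and 6 of 10. Astrocyte genes rose in 4 and fell in 2 of 8 in each genotype. Neuronal genes rose in 3 and fell in 4 of 10 in knockout mice, and rose in 4 and fell in 4 in wild-type mice. Called genes numbered 0 and 1 of 9 for choroid plexus, and 2 and 3 of 7 for other smooth muscle and heart or skeletal muscle. The summed level of the meningeal list ranged from 25.2 to 31.2 in knockout and from 28.3 to 34.5 in wild-type brainstem, against 19.2 to 27.6 and 18.2 to 25.2 in hippocampus, and all 12 genes were above background on all arrays. The summed level of the 10 described genes ranged from 29.9 to 32.7 and from 27.8 to 31.6 in brainstem, against 23.2 to 27.4 and 21.4 to 26.4 in hippocampus.

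Between brainstem and cortex, 4 of 30 endothelial genes rose and 1 fell in each genotype, with medians of 0.20 in knockout and 0.28 in wild-type mice against 0.02 and 0.03 for all genes. The 16.7% called in each genotype lay below the share of all genes, 35.5% and 35.7%. Aplnr rose by 1.52 and 2.36, Pgf by 0.98 and 1.36 and Angpt2 by 0.85 and 0.997, and Cd34 fell by 1.79 and 1.71. Of 24 barrier genes 5 rose and 0 fell in each genotype, with 5 and 6 at an unadjusted p under 0.05 (limma), among them Lef1 (0.96 and 1.102), Jam2 (0.71 and 0.68) and Slc16a1 (0.55 and 0.64). Of 21 pericyte and smooth muscle genes 4 rose and 3 fell in knockout mice, and 5 rose and 3 fell in wild-type mice (33.3% and 38.1%). Mcam rose by 1.35 and 1.26, Abcc9 by 0.88 and 0.72 and Notch3 by 0.75 and 0.93, and Pdgfb fell by 0.73 and 0.96. All 8 oligodendrocyte genes rose in both genotypes (medians 1.35 and 1.30). Called genes numbered 6 of 8 for astrocytes and 7 of 10 for neurons in each genotype, and 6 and 5 of 10 for microglia. The part of these lists in the vascular differences was not tested.

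Between hippocampus and cortex, 3 of 30 endothelial genes rose and 2 fell in each genotype (16.7%, against 16.3% of all genes in knockout and 16.7% in wild-type mice), with medians of -0.24 in knockout and -0.15 in wild-type mice against 0.03 for all genes in both. Meningeal and fibroblast genes had medians of -0.73 and -0.49 (7 and 4 of 12 fell, 1 and 2 rose). Erythrocyte genes had medians of -0.33 and -0.50, with 0 of 4 called. Called genes numbered 3 and 5 of 8 for astrocytes and 1 and 4 of 10 for neurons. They numbered 4 of 7 in each genotype for other smooth muscle and heart or skeletal muscle. Choroid plexus genes had medians of 0.31 and 0.74, with 0 of 9 called. The part of these lists in the endothelial differences was not tested. Nrp1 rose by 2.02 and 1.88, Nrp2, a co-receptor of VEGF and semaphorins, by 0.79 and 0.51, and Pgf by 0.62 and 0.50, and Cd34 fell by 1.02 and 0.72. Ocln, a tight junction protein, rose by 0.60 and 0.83, as 1 of 2 barrier genes that rose in knockout mice and the single one in wild-type mice. Among pericyte and smooth muscle genes 1 rose and 3 fell in each genotype. Cald1, an actin-binding protein of smooth muscle, rose by 0.64 and 0.89, while the pericyte peptidase Anpep fell by 0.67 and 0.55 and Vtn fell by 0.40 and 0.38.

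The genes whose levels followed each of the 10 most closely over the 18 arrays were ranked by Pearson correlation among 13339 genes above background on all arrays. The coefficients are given as descriptions with no test, since the arrays share regions and slides. Flt1 was most like Mmrn2 (0.959) and Robo4 (0.957), an extracellular matrix protein and a guidance receptor of endothelium, followed by Rnf215 (0.933). Tek was most like its relative Tie1 (0.869), then Gli2 (0.829) and Thoc5 (0.828). Cdh5 was most like the proteoglycan core Srgn (0.931) and the forkhead factors Foxf2 (0.926) and Foxc1 (0.923), which are known from brain pericytes. Cldn5 was most like Des (0.873), the intermediate filament of muscle cells and pericytes, then Gimap1 (0.855) and Pla2g6 (0.831).

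For other genes the closest were not vascular markers by name. Pecam1 was most like Fam114a1 (0.955), Ptprm (0.948), a receptor phosphatase abundant in endothelium, and the sodium-calcium exchanger Slc8a3 (0.922). Kdr was most like Iqgap1 (0.862), Fbn1 (0.846) and Dicer1 (0.832). Pdgfrb was most like 8430429K09Rik (0.902), Pla1a (0.890) and Golga5 (0.871), Rgs5 like Plcg2 (0.900), Phykpl (0.878) and Gm3020 (0.869), and Abcb1a like Gpr176 (0.886), Nipal4 (0.848) and Csk (0.831).

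The probes of Acta2 differed in the genes they followed. The brightest was most like Galnt17 (0.976), Il16 (0.975) and Pcdh19 (0.975), a protocadherin of neurons. The second, examined after its values were seen, was most like Ecm2 (0.762), Col6a5 (0.758) and Pln (0.752), the phospholamban of muscle. The dimmest was most like Aoc3 (0.863), the vascular adhesion protein found in smooth muscle and endothelium, then Stx16 (0.799) and Mpzl1 (0.789). The second Cdh5 probe was most like Fam114a1 (0.912) and Pecam1 (0.906), and the second Flt1 probe like Atp6v0a2 (0.902).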

How the data were processed

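Per the file headers, the authors scanned the arrays and extracted them with Agilent Feature Extraction 10.7.3.1, and the deposited scanner files give a processed intensity for each spot after background subtraction, with no scaling between arrays. The deposited table of the series holds intensity values too: 11 of its 18 columns equalled the array they name and 7 equalled another, so it served only as an alternative. Outlier-flagged spots (30 to 140 per array) were removed. Log2 values were averaged per probe and set against the 75th percentile of the same array. The 30070 of 41174 probes tested had to exceed background clearly on each of the 3 arrays of some group, and each gene was read from its brightest probe. Names were assigned by matching probe identifiers to RefSeq (26690 probes with 1 symbol, 14484 with none, 0 with several), and the others were tested under their identifier.

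Limma 3.58.1 (R 4.3.3) fitted 1 mean per group over 18 arrays (12 residual and 2.33 prior degrees of freedom), with two-sided tests, Benjamini-Hochberg adjustment over 22675 genes within each of 13 comparisons and calls at an adjusted p under 0.05. The fit was tested on simulated data. The design text calls the RNAs of a group independent, and p-values rest on the spread between them, part of which may be technical. The title number is the number that ends a sample title. The titles do not say that it stands for a mouse, so a block for it is no control for the animal. Deviations of same-numbered knockout and wild-type arrays of a region correlated at 0.24 to 0.62 in 9 of 9 pairs. The arrays of each such pair shared a slide, and the part of slide in these correlations was not tested. No mean-signal column was in the files, so normexp (offset 50) used the median signal. Alternatives were normexp, quantile normalization, other filters on dim probes, and trend and robust moderation. Further ones were the series table, blocks for title number and slide, and each array left out. Reading other probes of a gene, and counts of direction without each array, were added after seeing the data.

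The 10 genes and the lists were chosen with earlier results of these data known. The text names all 10 genes with all probes; from the 3 vascular lists the 3 smallest p-values in the knockout average and, between regions, up to 4 largest differences called in both genotypes in the same direction on probes above background on all arrays; from the other lists the smallest p in the knockout average; Nfe2l2; and the 3 genes most like each of the 10. Slc17a7 was added after its values were seen, as a check of the brainstem labels. Its levels in hippocampus and cortex were alike, so it does not check which of these regions an array holds. One gene of the barrier list that this rule selects is not reported here.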

Additional observations from a re-analysis of the deposited data

How the results depend on the processing

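Between genotypes, 720 values of the 10 genes under alternatives gave 0 calls (lowest adjusted p 0.297), and the sign changed in 70 of them. The 630 values for the difference of the knockout effect between regions gave 0 calls. Between regions, the 11 called results kept their sign in all 176 values under the alternatives and were past the threshold in 150. The 4 past it in every one were Pecam1 between brainstem and hippocampus in both genotypes, Acta2 in that comparison in wild-type mice and Rgs5 between brainstem and cortex in wild-type mice. Acta2 between hippocampus and cortex in both genotypes, and between brainstem and hippocampus in knockout mice, lost the call on the series table only. Some columns of that table hold arrays of other groups. The probes of Acta2 other than the brightest, added after seeing the data, did not show the fall from hippocampus to brainstem. Brainstem minus hippocampus was 0.0106 ± 0.21 and 0.20 ± 0.28 in knockout, and 0.14 ± 0.21 and 0.26 ± 0.28 in wild-type mice. For the dimmest, hippocampus minus cortex in knockout mice was -0.11 ± 0.28. These values had the sign opposite to the brightest probe. Each was smaller in size than its standard error, so they do not show a reversal. The cause of the difference between probes was not tested.

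With the replicate block the number of the 10 genes called became 2 for brainstem minus cortex in knockout mice, and in wild-type mice 5 for brainstem minus hippocampus, 4 for brainstem minus cortex and 2 for hippocampus minus cortex. The genes added were Rgs5 and Flt1, then Cldn5 and Rgs5, Kdr and Pecam1, and Rgs5. The share of all genes called was counted in the main fit only. Whether these counts, and those below, moved with that share is therefore not known. Arrays of the same genotype and title number correlated between regions at -0.05 to 0.71, over 0.1 in 14 of 18 pairs. This held in all 3 pairs for wild-type brainstem and cortex and for knockout brainstem and hippocampus, and not in all 3 otherwise. Whether a number is 1 animal across regions is not stated in the labels. The block changed no call between genotypes. With title number as a random replicate block, brainstem minus cortex gave 1 in knockout and 4 in wild-type mice. With slide as a random block, hippocampus minus cortex gave 1 in knockout mice and brainstem minus cortex 1 in wild-type mice, and without the filter on dim probes the same comparisons gave 1 and 1. Normexp gave 1 for hippocampus minus cortex in knockout mice. The series table, with 7 columns that hold another array, gave 0 for hippocampus minus cortex in both genotypes and 1 for brainstem minus cortex in knockout mice. Leaving out 1 array gave, in knockout and wild-type mice, 2 to 4 and 2 to 3 for brainstem minus hippocampus, 0 to 2 and 1 to 3 for brainstem minus cortex, and 1 to 2 and 1 to 2 for hippocampus minus cortex.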
